A study of Mus musculus with 3 samples.

Results

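The genes described here are the mitochondrially encoded genes of the mouse, chosen as every gene whose symbol starts with mt-. The annotation (GENCODE vM21, build GRCm38) holds 37 of them: 13 protein genes, 2 rRNA genes and 22 tRNA genes. Of these, 15 had a row in the CBTi-seq table among 20716 gene symbols, and all 37 had a row in the 3' tables among 55295 symbols, 27 of them with at least 1 count. The study knocked down Rrm2, a subunit of ribonucleotide reductase, in L929 cells, an established mouse fibroblast line, and read knockdown and control cells by CBTi-seq and by a method aimed at the 3' ends of transcripts. The CBTi-seq sample was 1 table with 10 columns named control and 10 named knock, and each 3' sample was a library of 8 columns, labelled control or knock. How the knockdown was made, and whether the cells were 1 clone or a pool, are details not given in the sources used here.

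Mitochondria keep a small circular genome that is transcribed from both strands into long precursors, and tRNAs punctuate these precursors and are cut out to free the mRNAs and rRNAs. The proteins are core subunits of respiratory complexes I, III and IV and of ATP synthase (complex V), while complex II and all factors that copy, transcribe and process the mitochondrial genome come from the nucleus. Ribonucleotide reductase makes the deoxynucleotides from which nuclear and mitochondrial DNA are built, and Rrm2b replaces Rrm2 as its small subunit in cells that do not divide.

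Each group came from 1 sample, or from columns of 1 shared sample, so no difference here was tested and columns are not replicates. Levels are CPM, counts per 1000000 of all gene counts, summed over the columns of a group. The 95% intervals are exact (Poisson for levels, binomial for shares, conditional for ratios) and cover counting error only. Column totals were 41570 to 846819 counts (control) and 153051 to 735871 (knock) in CBTi-seq, and 399393 to 2496457 and 814960 to 1973137 in the 3' libraries with those labels. Whether fewer cells or less RNA per cell lay behind a low column cannot be told apart. Rrm2 itself was lower in the summed CBTi-seq knock columns (481 against 350.1 CPM, log2 ratio -0.46), with overlapping columns (356 to 652 and 283 to 489 CPM). In the 3' tables, however, it was higher in the library labelled knock (39.1 against 148 CPM, log2 ratio 1.92). There the columns did not overlap (29.2 to 49.6 and 123 to 173 CPM). Each direction drawn from the 3' libraries therefore rests on labels that the targeted gene goes against. Of 13 fibroblast markers, 8 reached 20 CPM in both CBTi-seq groups, where Thy1, Lum and Dcn had no row. In the 3' libraries 4 (labelled control) and 7 (labelled knock) reached it. The epithelial marker Cdh1 was at 188 and 110.5 CPM in these 3' libraries and had no row in CBTi-seq. Whether genes without a row were counted there is not known. The summed fibroblast markers were at 1853 CPM in the 3' library labelled control (columns 1693 to 1966) and 3202 CPM in that labelled knock (3079 to 3306), and at 2584 and 2525 CPM in CBTi-seq. The immune marker Cd68 was at 77.8 and 150.0 CPM in the 3' libraries and at 43.5 and 20.0 CPM in CBTi-seq. Ptprc and Cd3e were at 0 in the 3' libraries and had no row in CBTi-seq. The part of these markers in the results was not tested.

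The mitochondrially encoded share of counts was higher in the 3' library labelled knock than in the one labelled control, and nearly level between the CBTi-seq groups. In the 3' library labelled control it was 0.946% in the lowest of 8 columns, 0.968% at the median and 0.994% in the highest. In the library labelled knock the same values were 1.67%, 1.70% and 1.74%. All 8 columns of the second library lay above all 8 of the first, and the columns within a library lay close together, with an SD over columns 1.46 and 1.78 times the counting SD. Summed, the shares were 0.963% and 1.71%, a log2 ratio of 0.83 (0.82 to 0.84), or 1.78-fold. Ribosomal protein genes moved the other way between these libraries, from 23.6 to 24.7% of the counts of each column to 15.7 to 16.4%. With ribosomal protein genes left out of the totals the log2 ratio of the mitochondrial share was 0.69. The median log2 ratio over all genes at 20 CPM or more was 0.18, and TMM scaling shifted it by -0.15, to 0.03. On that scale the mitochondrial share still had a log2 ratio of 0.68.

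In CBTi-seq the share in the control columns was 0.477% at the lowest, 0.903% at the median and 2.07% at the highest. In the knock columns it was 0.604%, 0.953% and 1.38%. The 2 sets of columns overlapped over the whole range of the knock columns, and the SD over columns was 22.5 times (control) and 14.5 times (knock) the counting SD. Summed shares were 0.785% (0.776 to 0.794) and 0.869% (0.860 to 0.879), a log2 ratio of 0.15 (0.12 to 0.17). This small difference did not keep its sign when columns were treated in other ways. The mean over columns gave -0.016, and leaving out control column 9, the largest of the control columns, gave -0.0035.

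**Figure D1:**
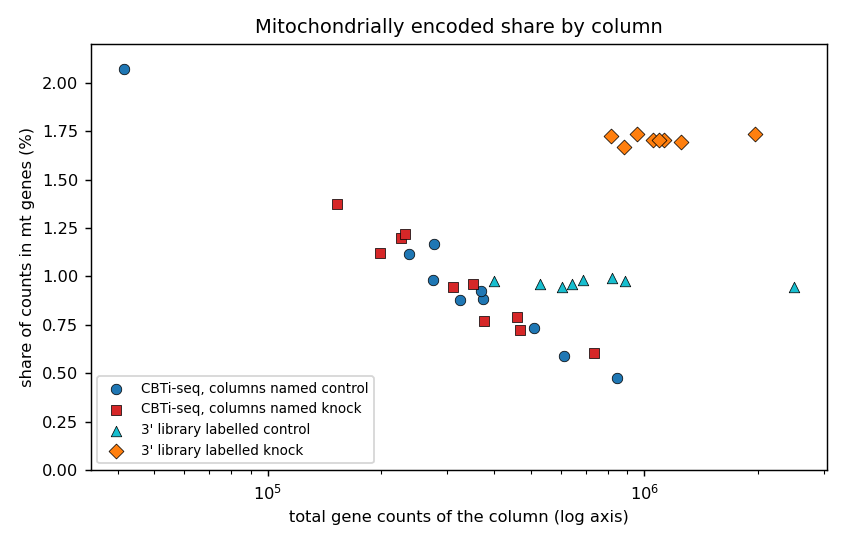
Share of counts in mitochondrially encoded genes (y axis, %) against the total gene counts of the column (x axis, log scale), 1 point per column, with 10 and 10 CBTi-seq columns and 8 and 8 columns of the 3' libraries. The CBTi-seq points fall from 2.07% in the column of 41570 counts to 0.477% in that of 846819, while the 3' points form level bands at 0.946 to 0.994% (labelled control) and 1.67 to 1.74% (labelled knock).

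The CBTi-seq share was lower in columns with larger totals. Over the 20 columns Spearman's rank correlation between the share and the total was -0.97, and it was -0.93 within the 10 control and within the 10 knock columns. Share and total have the total in common, so this is a description only. In the 3' libraries the same correlation was 0.17 (labelled control) and -0.024 (labelled knock) over 8 columns each. The counts that varied least were those of mt-Rnr2, the RNA of the large mitochondrial ribosomal subunit, and of mt-Nd1, a membrane-arm core subunit of complex I. Control column 1, with 41570 counts, held 238 counts of mt-Rnr2, and control column 9, with 846819 counts, held 605. Over all 20 columns mt-Rnr2 counts varied 2.68-fold and mt-Nd1 counts 2.36-fold, while totals varied 20.4-fold. The less abundant mt-Nd6 varied 54.2-fold (5 to 271 counts) and mt-Atp6 40.0-fold (3 to 120 counts).

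mt-Rnr2 and mt-Nd1 thus had nearly the same count in every well-filled CBTi-seq column. No gene of any kind passed 638 counts in a CBTi-seq column, and the highest gene of a column held 399 to 638, whereas the highest gene of a 3' column held 10578 to 67257. mt-Rnr2 was itself the highest gene in 3 of 10 control and 6 of 10 knock columns. The ratio of mt-Rnr2 to mt-Nd1 counts was 0.922 to 1.06 over control and 0.941 to 1.11 over knock columns. In the 3' libraries the same ratio was 2.90 to 3.35 (labelled control) and 1.84 to 2.04 (labelled knock), with no overlap between them. Why CBTi-seq counts level off was not tested. The sum over columns therefore gives the CBTi-seq groups different mixtures of depths. In the columns of 200000 to 500000 counts, 6 control and 7 knock columns, the mitochondrial share was 0.977% in control and 0.897% in knock, a log2 ratio of -0.12. This comparison, called depth-matched below, was chosen after the data were seen. It narrows the range of depths but does not make them equal: the median column held 299910 counts in control and 350687 in knock. The part of this remaining gap in the depth-matched ratios was not tested.

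**Figure D2:**
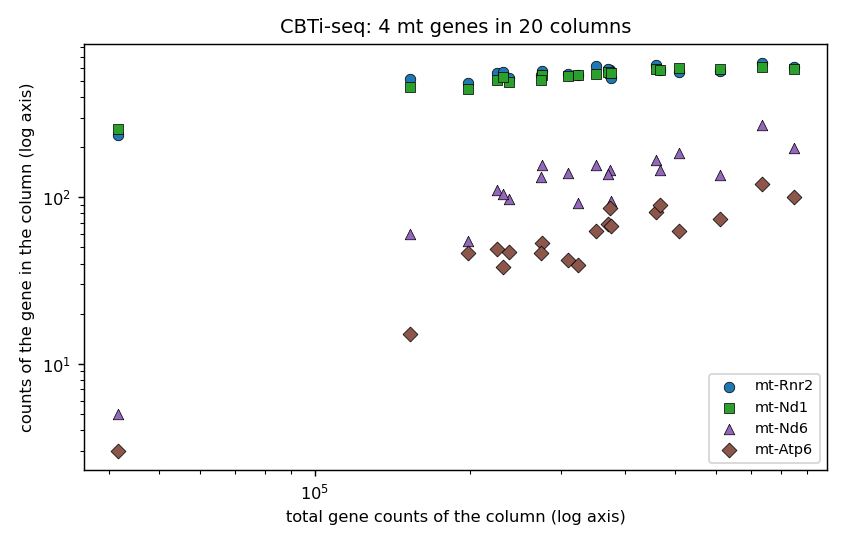
Counts of mt-Rnr2, mt-Nd1, mt-Nd6 and mt-Atp6 in each of the 20 CBTi-seq columns (y axis, log scale) against the total gene counts of the column (x axis, log scale). mt-Rnr2 and mt-Nd1 lie between 238 and 638 counts throughout, while mt-Nd6 climbs from 5 to 271 and mt-Atp6 from 3 to 120.

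Gene by gene, members were compared where the mean of both groups was at least 20 CPM. With the 3' method 11 members reached it, and all 11 were higher in the library labelled knock, against 58.8% of the 5701 genes at that level (41.2% were lower). Their median log2 ratio was 1.09 against 0.18 over all genes. The columns of the 2 libraries did not overlap for any of the 11, against 21.2% of all genes with every labelled-knock column above every labelled-control column (8.02% the other way). mt-Tp is among the 11 only through its level in the library labelled knock (15.7 against 82.0 CPM), so its direction was largely fixed by the limit. Of the 9 members that averaged 50 CPM or more, 4 were higher by 2-fold or more (mt-Co1, mt-Nd1, mt-Nd6 and mt-Nd5), against 13.3% of 2826 genes, and none was 2-fold lower (4.53% of genes). In CBTi-seq 14 members reached 20 CPM, of which 12 were higher in knock, against 44.7% of 8391 genes, and 2 lower, against 55.3%, with a median log2 ratio of 0.19 against -0.05. The columns of the 2 groups overlapped for every member, while all knock columns lay above all control columns for 0.0596% of genes and below them for 0.0715%. None of 12 members was 2-fold apart (0.343% of 5243 genes were 2-fold higher and 0.668% lower). In the depth-matched columns 3 of 14 members were higher in knock, against 49.7% of the 8218 genes at 20 CPM or more in those columns, and the members' median log2 ratio was -0.093 against -0.0029 over these genes.

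**Figure D3:**
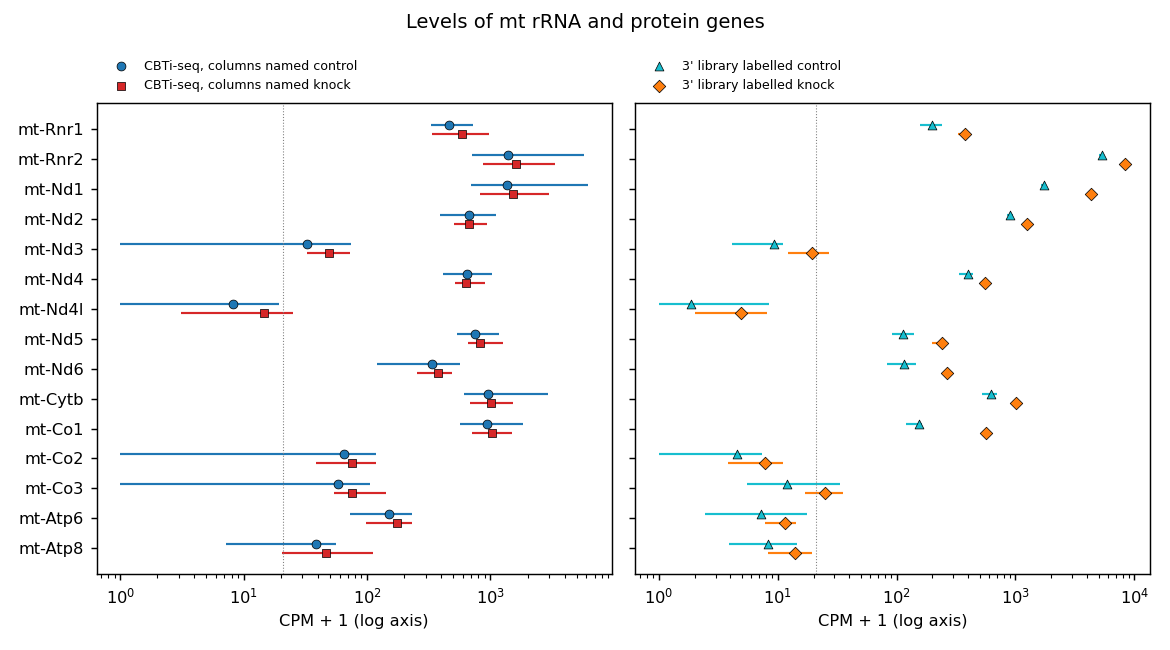
Levels of the 15 mitochondrially encoded rRNA and protein genes (x axis, CPM plus 1, log scale) in CBTi-seq (left) and in the 3' libraries (right), with points for the summed columns and bars from the lowest to the highest column. The dotted line is the limit of 20 CPM: by summed level mt-Nd4l alone stays under it in CBTi-seq, and mt-Nd3, mt-Nd4l, mt-Co2, mt-Atp6 and mt-Atp8 in both 3' libraries.

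The rRNA genes carried 57.2% (library labelled control) and 51.0% (labelled knock) of the mitochondrially encoded 3' counts, but 23.5 and 25.3% in the CBTi-seq control and knock groups. mt-Rnr2 (ENSMUSG00000064339, chrM:1094-2675, plus strand) ran from 5073 through 5455 to 5571 CPM over the columns labelled control, as lowest, median and highest, and from 8092 through 8261 to 8653 over those labelled knock. The libraries did not overlap, and the log2 ratio was 0.65 (0.64 to 0.67). In CBTi-seq mt-Rnr2 ran from 714 through 1642 to 5725 CPM in control and from 867 through 1758 to 3345 CPM in knock. These columns overlapped, the sums were 1380.4 and 1609.9 CPM (log2 ratio 0.22), and the depth-matched columns gave -0.12. mt-Rnr1 (ENSMUSG00000064337, plus strand), the RNA of the small ribosomal subunit, was far less abundant than mt-Rnr2 in the 3' libraries, at 198 against 5308 CPM in the library labelled control. Its 3' columns ran from 155 to 241 CPM and from 328 to 407 CPM, with a log2 ratio of 0.93 (0.84 to 1.02) between the sums. In CBTi-seq mt-Rnr1 was at 462 and 591 CPM (log2 ratio 0.35), and at a log2 ratio of 0.0073 in the depth-matched columns.

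Complex I, which takes electrons from NADH, holds 7 of the 13 proteins. Its genes together held 0.329% of counts in the 3' library labelled control and 0.661% in that labelled knock, with a log2 ratio of 1.01 (0.99 to 1.03). The CBTi-seq groups had 0.380 and 0.409% (log2 ratio 0.10, 0.07 to 0.14; depth-matched -0.15). mt-Nd1 (ENSMUSG00000064341, chrM:2751-3707, plus strand) is, with mt-Rnr2, the member whose CBTi-seq counts varied least between columns. Over the 3' columns it ran from 1650 through 1758 to 1796 CPM (labelled control) and from 4095 through 4305 to 4476 CPM (labelled knock). Every column labelled knock lay above every column labelled control, and the log2 ratio was 1.29 (1.26 to 1.32). In CBTi-seq mt-Nd1 was at 1359 and 1529.7 CPM (log2 ratio 0.17; depth-matched -0.12).

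The other complex I genes differed widely from each other in the 3' libraries. mt-Nd2 (chrM:3914-4951), also a membrane-arm subunit, ran from 847 through 872 to 947 CPM over the columns labelled control and from 1176 through 1259 to 1284 over those labelled knock, with a log2 ratio of 0.46 (0.41 to 0.50). mt-Nd4 (chrM:10167-11544), a proton-pumping subunit, was at 396 and 556 CPM with a log2 ratio of 0.49 (0.42 to 0.56). These 2 genes had the smallest 3' ratios among the 11 members, and in the summed CBTi-seq columns they were the 2 members at the limit with a negative ratio: mt-Nd2 was at 676 and 673 CPM (log2 ratio -0.0068) and mt-Nd4 at 651 and 632 CPM (log2 ratio -0.04), both with intervals that include 0. The depth-matched columns gave -0.23 and -0.25, and TMM factors 0.069 and 0.032. mt-Nd5 (chrM:11742-13565), the outermost pumping subunit, was at 113 CPM (columns 91.0 to 140.1) and 240.0 CPM (198 to 258) in the 3' libraries, which gives a log2 ratio of 1.09 (0.97 to 1.21). By CBTi-seq mt-Nd5 was at 746 and 816 CPM (log2 ratio 0.13; depth-matched -0.10), so its level there was 6.60 times that of the 3' method in control and 3.40 times in knock.

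mt-Nd6 (chrM:13552-14070) is the only protein gene on the minus strand of the annotation, where it overlaps the end of mt-Nd5 by 14 bases. Its 3' columns ran from 82.6 through 114 to 144 CPM (labelled control) and from 248 through 261 to 294 CPM (labelled knock), without overlap, for a log2 ratio of 1.23 (1.12 to 1.35). The 12 protein genes of the plus strand had a log2 ratio of 1.01 together. Whether counting used the strand is not given, so reads of mt-Nd6 and of plus-strand precursors across it cannot be told apart. In CBTi-seq mt-Nd6 was at 333 and 372 CPM (log2 ratio 0.16; depth-matched -0.11). mt-Nd3 and mt-Nd4l, small membrane subunits, were scarce: mt-Nd3 was at 8.35 and 18.3 CPM in the 3' libraries and 31.6 and 48.5 CPM in CBTi-seq (log2 ratios 1.14 and 0.62, with 0.47 in the depth-matched columns), and mt-Nd4l at 0.849 and 3.93 CPM (6 and 36 counts) and 7.25 and 13.7 CPM (28 and 48 counts).

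Complex III has 1 mitochondrial gene, mt-Cytb (chrM:14145-15288, plus strand), which encodes cytochrome b. It ran from 518 through 603 to 694 CPM over the 3' columns labelled control and from 975 through 1012 to 1086 over those labelled knock. The libraries did not overlap, and the log2 ratio was 0.72 (0.67 to 0.77). In CBTi-seq mt-Cytb was at 959 and 1003 CPM, with a log2 ratio of 0.07 whose interval includes 0, and the columns overlapped. The mean over columns gave -0.14 and the depth-matched columns -0.15.

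Complex IV, cytochrome c oxidase, showed the largest 3' ratio of the 4 complexes, with 0.0167% and 0.0596% of counts and a log2 ratio of 1.84 (1.75 to 1.93). Most of its counts, 1077 of 1180 and 5180 of 5464, were of mt-Co1 (ENSMUSG00000064351, chrM:5328-6872, plus strand), the catalytic subunit that carries the heme and copper centre. mt-Co1 ran from 118 through 153 to 164 CPM over the columns labelled control and from 529 through 563 to 612 over those labelled knock. The lowest column labelled knock was above the highest labelled control, and the sums of 152 and 565 CPM differed 3.71-fold, or 1.89 (1.80 to 1.99) on the log2 scale. In CBTi-seq mt-Co1 ran from 563 through 1029 to 1828 CPM in control and from 705 through 1137 to 1496 in knock. These overlapped, with sums of 936 and 1035.6 CPM (log2 ratio 0.15; depth-matched -0.09). mt-Co2, which receives electrons from cytochrome c, was at 3.54 and 6.88 CPM in the 3' libraries and at 63.7 and 74.7 CPM in CBTi-seq (log2 ratio 0.23; depth-matched -0.054). mt-Co3, a core subunit without metal centres, was at 11.04 and 24.1 CPM in the 3' libraries (log2 ratio 1.13) and at 57.2 and 75.3 CPM in CBTi-seq (log2 ratio 0.40; depth-matched -0.071).

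Complex V contributes mt-Atp6, the channel subunit through which protons pass, and mt-Atp8, a small peripheral subunit. They share 1 transcript, and the end of mt-Atp8 overlaps the start of mt-Atp6 by 43 bases, so reads there cannot be given to 1 gene. The overlap is shown in capitals in the sequence at chrM:7917-7979, plus strand, from the GENCODE vM21 transcripts, as is the 7-base overlap of mt-Nd4l and mt-Nd4 at chrM:10157-10183.
mt-Atp8 into mt-Atp6: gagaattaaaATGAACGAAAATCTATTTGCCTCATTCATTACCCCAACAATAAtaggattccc
mt-Nd4l into mt-Nd4: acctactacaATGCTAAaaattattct
In the 3' libraries mt-Atp6 was at 6.23 and 10.5 CPM (log2 ratio 0.75) and mt-Atp8 at 7.36 and 12.9 CPM (log2 ratio 0.81). Their columns overlapped between the libraries. In CBTi-seq mt-Atp6 was at 150.2 and 175 CPM (log2 ratio 0.22; depth-matched -0.042) and mt-Atp8 at 37.8 and 45.3 CPM (log2 ratio 0.26; depth-matched 0.18).

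**Figure D4:**
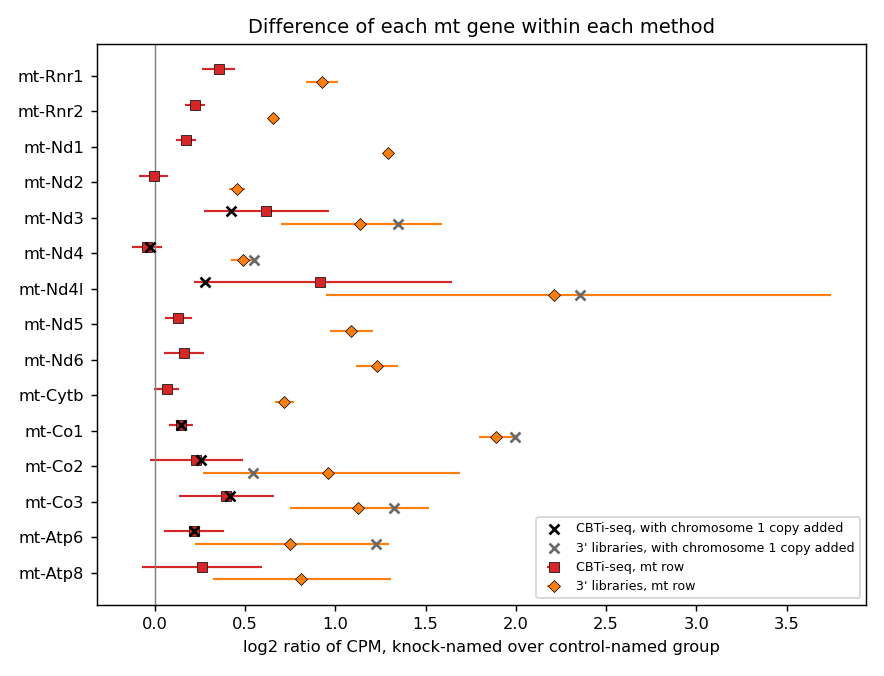
Log2 ratio of CPM, knock over control, of each mitochondrially encoded rRNA and protein gene (x axis), for CBTi-seq columns and for the 3' libraries as labelled, with 95% counting intervals as bars and crosses where the chromosome 1 copy of the gene was added. The 3' ratios run from 0.46 (mt-Nd2) to 2.21 (mt-Nd4l), and the CBTi-seq ratios from -0.04 (mt-Nd4) to 0.92 (mt-Nd4l).

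No tRNA gene is listed in the CBTi-seq table, where every gene has a count, so whether these genes were counted there is not known. The value of 3 counts, used here as a floor and not as an interval, was 0.777 CPM (control) and 0.855 CPM (knock). With the 3' method 12 of the 22 tRNA genes had a count. They summed to 286 counts (library labelled control) and 1223 (labelled knock), with a log2 ratio of 1.72 (1.53 to 1.91). Nearly all belonged to mt-Tq and mt-Tp, the tRNAs for glutamine and proline, both on the minus strand. Whether counting used the strand is a detail not given in the sources used here, so reads of these genes and of plus-strand precursors across them cannot be told apart. Their sequences, from the GENCODE vM21 transcripts, are those of chrM:3772-3842 and chrM:15356-15422, minus strand.
mt-Tq: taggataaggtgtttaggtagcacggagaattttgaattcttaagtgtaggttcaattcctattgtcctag
mt-Tp: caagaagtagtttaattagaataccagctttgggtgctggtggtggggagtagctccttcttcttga
mt-Tp ran from 8.27 through 14.5 to 27.5 CPM over the columns labelled control (111 counts in all) and from 70.9 through 79.0 to 112 over those labelled knock (751 counts). The columns did not overlap, and mt-Tp had the largest log2 ratio of the 11 members at the 20 CPM limit, 2.38 (2.09 to 2.68). It reached that limit through the library labelled knock alone. mt-Tq ran from 11.6 through 19.9 to 28.1 CPM and from 39.7 through 43.5 to 66.3 CPM, again without overlap, with a log2 ratio of 1.13 (0.86 to 1.41). Of the other tRNAs, mt-Tc had 13 and 40 counts, and none of the rest passed 6 counts in a library.

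Reverse transcription was primed with oligo dT per the labels' protocols, so runs of A within the members were counted from their sequences. The longest run of A was 8 bases in mt-Nd2 and in the tRNA gene mt-Tr, 7 in mt-Rnr2, mt-Co1, mt-Nd4 and mt-Nd5, 6 in mt-Nd1, and 3 in mt-Nd6. The longest run of T in mt-Nd6, a run of A on the opposite strand, was 7 bases. The windows of 20 bases richest in A are shown for the most abundant gene, for the gene with the longest run and for the minus-strand gene, with each A of the window in capitals and 10 bases on either side. They lie at chrM:1478-1517 and chrM:4030-4069 on the plus strand and at chrM:13820-13859 on the minus strand.
mt-Rnr2 A-rich: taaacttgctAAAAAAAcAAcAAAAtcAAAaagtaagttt
mt-Nd2 A-rich: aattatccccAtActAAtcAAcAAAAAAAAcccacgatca
mt-Nd6 A-rich: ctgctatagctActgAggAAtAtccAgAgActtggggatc
These windows held 16, 14 and 8 A. mt-Tr, a gene of 68 bases, had no count in either 3' library. Where in a gene the reads start is not in count tables, so priming at these windows was not tested.

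Levels of the members were set side by side between methods. The 3' library labelled control had mt-Rnr2 first (5308 CPM), then mt-Nd1 (1752), mt-Nd2 (902) and mt-Cytb (620), with no overlap of columns between neighbours. That method is aimed at transcript ends, so its levels are not given per length. The CBTi-seq levels that follow are per length, so the orders of the methods are on unlike scales. In CBTi-seq control columns mt-Nd1 was at 1420.2 and mt-Rnr2 at 873 CPM per kb, but with nearly equal counts that level off, the order of these 2 follows from their lengths (957 and 1582 bases) and is no ranking. Below them came mt-Cytb (838), mt-Nd2 (651), mt-Nd6 (642) and mt-Co1 (606 CPM per kb), and the columns of neighbours overlapped. The CPM of mt-Cytb and mt-Co1 also fell with the column total, so their levels and between-method ratios depend on depth too. By level, mt-Rnr2 was at 0.260 of its 3' CPM in CBTi-seq control columns and at 0.193 of it in knock columns, ratios that rest on the same levelled counts. mt-Atp6, mt-Co2, mt-Nd4l, mt-Nd5 and mt-Co1 stood at the other end, with control levels in CBTi-seq 24.1, 18.0, 8.54, 6.60 and 6.14 times their 3' levels. Each of these but mt-Nd5 has a nearly complete or partial copy on chromosome 1 with a row of its own in the tables.

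A search of the annotated transcripts found 7 such copies side by side on chromosome 1 (chr1:24611535-24616197, GRCm38, 4663 bases), each 99.7 to 100% identical to its mitochondrial gene. They are the unprocessed pseudogenes Gm29216 (of mt-Co1), Gm28661 (mt-Co2), Gm10925 (mt-Atp6), Gm28437 (mt-Co3), Gm28438 (mt-Nd3), Gm10222 (mt-Nd4l) and Gm28439 (mt-Nd4). Over their aligned lengths 5 of the 7 had no mismatch, so reads inside them cannot be assigned to the mitochondrial gene or the copy by sequence. The other pairs differ by 1 base, written as the mitochondrial base, its position counted from 1 at the first base of the mitochondrial gene, and the base of the copy: T3C between mt-Nd3 and Gm28438 and A1066T between mt-Co1 and Gm29216. The stretches around these bases, in capitals, are chrM:9459-9491 and chrM:6390-6423 on the plus strand, and chr1:24613087-24613119 and chr1:24616155-24616188 on the minus strand. The shared start of mt-Atp6 (chrM:7927-7986) and Gm10925 shows a pair without a difference.
mt-Nd3: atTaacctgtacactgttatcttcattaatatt
Gm28438: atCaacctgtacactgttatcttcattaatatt
mt-Co1: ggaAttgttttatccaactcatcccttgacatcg
Gm29216: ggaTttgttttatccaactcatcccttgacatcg
mt-Atp6 and Gm10925: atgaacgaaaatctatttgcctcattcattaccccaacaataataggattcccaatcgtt

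The copies held most of the joint counts of several pairs, and a larger part in the 3' tables than in CBTi-seq. For mt-Atp6 and Gm10925 the copy had 974 of 1018 counts (95.7%, 94.2 to 96.8) in the 3' library labelled control and 96.9% in its counterpart labelled knock, but 42.3 and 42.4% in the CBTi-seq groups. For mt-Nd3 and Gm28438 it had 94.4 and 95.1% in the 3' libraries and 81.5 and 78.9% in CBTi-seq. For mt-Co2 and Gm28661 the shares were 92.1 and 89.5% against 46.4 and 47.4%, and for mt-Co3 and Gm28437 they were 90.7 and 91.9% against 54.3 and 55.0%. For mt-Co1 and Gm29216, which covers only the last 483 aligned bases of the gene, the copy had 42.3 and 46.3% in the 3' libraries and 11.2% in both CBTi-seq groups. For mt-Nd4 and Gm28439, which stops before the 3' end of mt-Nd4, it had 5.67 and 9.31% against 4.08 and 5.18%. The levels of mt-Atp6, mt-Co2, mt-Co3, mt-Nd3 and mt-Nd4l given above are therefore those of rows that hold the minor part of such reads in the 3' libraries. How the counting placed reads that match both is a detail not given in the sources used here.

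**Figure D5:**
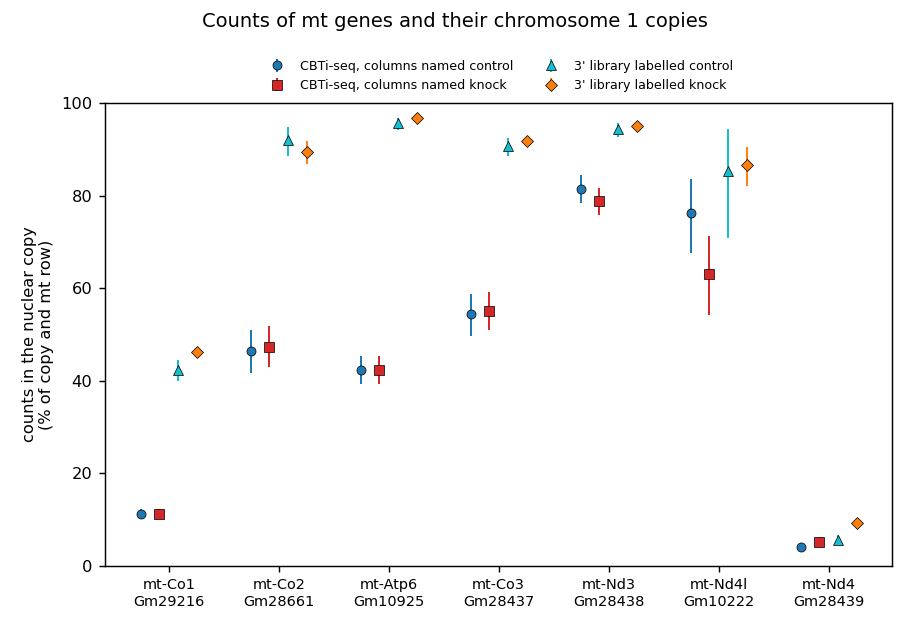
Counts in the chromosome 1 copy as a percentage of the counts of the copy and its mitochondrial gene (y axis), for 7 pairs and 4 groups, with exact binomial 95% intervals as bars. In 5 pairs the 3' libraries put 85.4 to 96.9% of the counts in the copy, while CBTi-seq put 42.3 to 81.5% there. mt-Nd4 and its copy stay under 10.1% in every group, interval included.

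With the copy added, all 7 pairs came closer between methods in the control groups. For mt-Nd4 and mt-Nd4l the intervals with and without the copy overlapped. mt-Atp8, for which no such copy was found among annotated transcripts, was 5.14-fold apart. Sequence outside these transcripts was not searched, and the first 43 bases of Gm10925 are also the end of mt-Atp8. The part of the copies in the gap between methods was not tested. mt-Atp6 with Gm10925 was at 260.2 CPM in CBTi-seq control columns and 144 CPM in the 3' library labelled control, 1.81-fold apart (1.65 to 1.97) where the gene alone was 24.1-fold apart. mt-Co3 with Gm28437 was at 125 and 119 CPM, a ratio of 1.05 (0.94 to 1.18) in place of 5.19. mt-Co1 with Gm29216 was at 1054 and 264 CPM, a ratio of 3.99 in place of 6.14, and in the knock groups at 1166 and 1052 CPM, a ratio of 1.11 in place of 1.83. In control the ratio with the copy was 1.15 for mt-Nd3 (in place of 3.78) and 1.62 for mt-Nd4 (in place of 1.65). It was 2.64 for mt-Co2 (in place of 18.0) and 5.27 for mt-Nd4l (in place of 8.54). In the knock groups CBTi-seq was the lower method for mt-Atp6 (0.90), mt-Nd3 (0.61) and mt-Co3 (0.56) with the copy. It was the higher for mt-Nd4 (1.09), mt-Nd4l (1.25) and mt-Co2 (2.16). The knock-over-control ratio of the 3' libraries held its sign with the copy added in all 7 pairs: mt-Co1 2.00, mt-Co2 0.54, mt-Atp6 1.22, mt-Co3 1.32, mt-Nd3 1.35, mt-Nd4l 2.36 and mt-Nd4 0.55 on the log2 scale. The copies on chromosome 1 by themselves held 4010 (labelled control) and 14538 (labelled knock) counts. Their log2 ratio was 1.48 (1.43 to 1.53) there and 0.28 (0.19 to 0.36) by CBTi-seq. A second block on chromosome 2 (chr2:22587291-22590533) holds Gm13339, Gm13340 and Gm13341, copies of mt-Nd2, mt-Co1 and mt-Co2 at 95.9 to 97.6% identity. It had 478 and 526 counts in the CBTi-seq groups and 0 in both 3' libraries. Gm4076 on chromosome 13, a copy of part of mt-Nd5, had 26 and 27 CBTi-seq counts and 30 and 10 with the 3' method.

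Among the nuclear genes that maintain and read the mitochondrial genome some were higher and some lower, as among all genes. In CBTi-seq 8 of 15 mtDNA maintenance genes at 20 CPM or more were higher in knock, against 44.7% of all genes. The other 7 were lower, against 55.3%, and the median log2 ratio was 0.12 against -0.05 over all genes. In the 3' libraries 3 of 9 were higher, against 58.8% of all genes, and 6 lower, against 41.2% (median -0.10 against 0.18). Of the 3 that averaged 50 CPM or more, 2 were lower by 2-fold or more in the library labelled knock, against 4.53% of genes. These were Twnk, the helicase of mtDNA replication, at 109 and 47.8 CPM (log2 ratio -1.19), and Slc25a36, a pyrimidine nucleotide carrier, at 187 and 92.8 CPM (log2 ratio -1.01). The columns of Twnk did not overlap (84.4 to 141 and 31.4 to 58.3 CPM), but those of Slc25a36 did (47.6 to 314 and 13.3 to 223 CPM). Rrm2b was at 160.5 and 94.8 CPM (log2 ratio -0.76), opposite in direction to Rrm2 in the same libraries. In CBTi-seq Twnk was at 60.1 and 70.4 CPM (log2 ratio 0.23), Rrm2b at 23.6 and 18.2 CPM, and Mpv17, an inner-membrane protein needed to keep mtDNA copies, at 64.5 and 37.4 CPM (log2 ratio -0.79), all with overlapping columns.

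Of 4 mitochondrial transcription genes at the limit in the 3' libraries, 2 were higher and 2 lower, against 58.8% and 41.2% of all genes. Mrpl12, a ribosomal protein that also binds the mitochondrial RNA polymerase, was at 260.4 and 561 CPM (log2 ratio 1.11) without overlap of columns, and Polrmt, the polymerase itself, at 64.8 and 61.7 CPM (log2 ratio -0.07). In CBTi-seq 4 of 6 were higher, against 44.7% of all genes. Mrpl12 was at 323 and 331 CPM there, and Tfam, which packs mtDNA and starts its transcription, at 68.4 and 64.7 CPM. Of the mitochondrial RNA processing genes, 8 of 9 were higher in the library labelled knock, against 58.8% of all genes, with a median log2 ratio of 0.22 near the 0.18 of all genes. Among the 4 that averaged 50 CPM or more, the largest ratio was that of Fastk, which stabilises mt-Nd6 RNA. It was at 83.9 and 165 CPM (log2 ratio 0.97). In CBTi-seq 16 of 29 were higher, against 44.7% of all genes (median 0.09 against -0.05), with Pus1, a pseudouridine synthase, at 88.6 and 120.0 CPM, and Grsf1, an RNA granule protein, at 147 and 178 CPM.

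Nuclear subunits of the same complexes had smaller 3' ratios at the median than their mitochondrially encoded partners had as a sum. A median over genes and a ratio of sums are unlike measures, so they are only set side by side. The counts of nuclear subunits called higher here stand against the 58.8% of genes that were higher in the library labelled knock. For complex I, 22 of 34 nuclear subunits were higher in the library labelled knock, with a median log2 ratio of 0.33, beside 1.01 for the summed mitochondrial subunits. Ndufb10, a membrane-arm accessory subunit, was at 273 and 939 CPM (log2 ratio 1.78). It was the only one of the 32 that averaged 50 CPM or more to be at least 2-fold apart. Among all genes at that level 13.3% were 2-fold higher and 4.53% 2-fold lower. For complex III, 7 of 8 were higher (median 0.52, beside 0.72 for mt-Cytb), with Uqcrh at 389 and 681 CPM. For complex IV, 5 of 10 were higher (median -0.0018, beside 1.84), with Cox5b at 703 and 953 CPM and Cox7a2 at 1206 and 921 CPM. The value of 1.84 is mostly that of mt-Co1, while mt-Co2 and mt-Co3 were at 0.96 and 1.13. For complex V, 11 of 14 were higher (median 0.27, beside 0.78), with Atp5k at 569 and 1105 CPM. The value of 0.78 rests on 96 and 214 counts. With near-identical nuclear copies added, complex V had 1070 and 3203 counts and a log2 ratio of 1.21 (1.11 to 1.31). The same sums gave 1.03 for complex I, 0.72 for complex III and 1.73 for complex IV. Complex II, which has no mitochondrial gene, had 3 of 4 higher (median 0.38). These medians stand against 0.18 over all genes. In CBTi-seq the medians of complexes I, II, III, IV and V were -0.0044, -0.13, 0.11, -0.07 and 0.08, against -0.05 over all genes and 0.10, 0.07, 0.17 and 0.23 for the mitochondrial subunits of complexes I, III, IV and V. In the depth-matched columns these 4 mitochondrial ratios were -0.15, -0.15, -0.087 and 0.0011.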

How the data were processed

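Counts per gene and column were deposited by the authors as whole numbers, without normalization, for 1 CBTi-seq sample (20 columns) and 2 samples of the 3' method (8 columns each). Every column was used, so 0 columns were left out. STAR 2.7.11b, Picard and FastQC stand in the submitters' processing notes, with GRCm38 and GRCh38 as builds whose roles are left unsaid. Strand use, the counting tool, the handling of reads with several matches, and the kind of 3' count (reads or molecules) are details not given in the sources used here.

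Columns were summed by group and scaled to all gene counts. The 3' Ensembl IDs were named through GENCODE vM21, in which 55141 of 55402 had an entry. Members and lists were chosen with earlier results of these data known. Named genes were every member (values for rRNA and protein genes with 20 CPM or more in a group), Rrm2, the nuclear copies with most counts, and, of each nuclear list and method, members among the 3 with the largest log2 ratio in size at a mean of 50 CPM or more. Others are named where a result turned on them: Rrm2b and Polrmt by their roles, and Cdh1 and Cd68 as markers. With 1 sample a group no test was made and no p-value exists. A floor is the CPM of 3 counts.

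Nuclear copies were searched among GENCODE vM21 transcripts with blastn 2.17.0 and kept at 95% identity over 200 bases or more and at least 90% of the copy. No genome sequence was used, so copies outside annotated transcripts were not analysed. Alternatives were means and medians over columns, other totals, TMM (edgeR 4.0.16) and median-of-ratios (DESeq2 1.42.0) factors, thinning to 50000 counts a column, correction for collisions among 1024 or 4096 UMIs, other level limits, copies added, and each column left out. Software was scipy 1.17.1, numpy 2.4.6, matplotlib 3.10.9 and pandas 2.3.3 in Python 3.11.15, and R 4.3.3. The calculation was tested on simulated data.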

Additional observations from a re-analysis of the deposited data

How the results depend on the processing

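No paired analysis was possible because each group is 1 sample or columns of 1 sample, and the labels give no shared replicate numbers. The cause of a change under an alternative was not tested. For the CBTi-seq mitochondrial share (log2 ratio 0.15) the median over columns gave 0.079, the mean -0.016, TMM factors 0.22, median-of-ratios factors 0.20, columns of 200000 to 500000 counts -0.12 (added after seeing the data), and leaving out 1 column -0.0035 (without control column 9) to 0.26 (without knock column 10). Of 14 members, 12 were higher, 3 in the columns of 200000 to 500000 counts, and 9 to 14 with 1 column left out. In those columns the log2 ratio was -0.09 for rRNA, -0.13 for protein genes, -0.15 for complex I, -0.087 for complex IV, -0.12 for mt-Nd1 and mt-Rnr2, -0.10 for mt-Nd5, -0.11 for mt-Nd6, -0.09 for mt-Co1, -0.071 for mt-Co3 and -0.042 for mt-Atp6. The mean over columns gave -0.037 for protein genes, -0.059 for complex I, -0.13 for mt-Nd1 and -0.036 for mt-Rnr2, and the median -0.044 for mt-Nd5. Leaving out 1 column gave -0.034 to 0.22 for protein genes, -0.048 to 0.21 for complex I, -0.014 to 0.34 for mt-Nd1 and -0.0072 to 0.26 for mt-Co1, each from without control column 9 to without knock column 10. After thinning, mt-Nd6 was at -0.03. For the 3' share (0.83) totals without ribosomal protein genes gave 0.69, TMM 0.68, median-of-ratios 0.67, copies added 0.87, and 1 column left out 0.82 to 0.83. The count of 11 of 11 members higher became 22 of 27 at 1 count or more, since more genes enter, and was 11 with any column left out. After thinning, mt-Nd3 was at -2.0 in the 3' libraries, from 4 and 1 counts.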
